A study of Mus musculus with 20 samples.

Results

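The channels described here are 5 genes whose products carry sodium or other monovalent cations into islet cells, namely the voltage-gated sodium channel genes Scn3a, Scn9a and Scn8a and the calcium-activated cation channel genes Trpm4 and Trpm5. They were chosen by name, all 5 were found among the 26211 genes of the table, and all 5 passed the filter on low values. The RNA came from pancreatic islets that were isolated by enzyme digestion, picked by hand and cultured overnight. There were 10 libraries of P2Y14-knockout mice, in which the receptor that senses extracellular UDP-glucose and related nucleotide sugars is disrupted, and 10 of wildtype mice. The strain of both groups is given as C57BL/6 x 129S6. Neither the age of the mice nor the deleted stretch of the receptor gene is stated in the labels. Whether the libraries of a group came from separate animals is not stated either, and p-values below measure only the spread between these samples.

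Voltage-gated sodium channels open on depolarization and let sodium in briefly before they inactivate, which gives the action potential its rapid upstroke. Each is built on a large pore-forming alpha subunit, and small beta subunits alter its gating and its place in the membrane. In islets they contribute to the firing of alpha, beta and delta cells. TRPM4 and TRPM5 are the TRP channels that conduct monovalent cations and hardly any calcium. They open when intracellular calcium rises, and the inward current depolarizes the cell. In beta cells they are known as links between receptors that raise calcium or cAMP and the electrical activity that drives insulin release.

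Values are normalized read counts, that is, the reads of a gene scaled by the size factor of its library. Total reads over genes ranged from 34520628 to 199847246, and the beta cell hormone genes Ins1 and Ins2 were at 660400 or more and 13380000 or more in every library. The mean of P2ry14, the targeted gene, was 51.2 ± 31.4 (SD, n = 10) over knockout libraries against 151 ± 67.4 (SD, n = 10) over wild-type ones, and in 8 of the 10 knockout libraries it was under the wild-type minimum. The library labelled knockout replicate 6 went against its group at other genes that differed with genotype. It had 79.7 for Myo7a where the other knockout libraries had 581 or more, and 1234 for Thbs3 where they had 617 or less. It also had 0 for Trim12a, where the others had 93 or more, and 0 for Rps13-ps2, where they had 495 or more. For Rps13-ps1 it had 1280, where their highest was 12.2. Its P2ry14 value, 61.7, was under the lowest wild-type value of 79.7. P2ry14 alone does not settle the label, since knockout replicates 2 and 10 were above that wild-type value, at 114 and 86.0. The log2 fold change of each channel is therefore given with and without this library. The levels, shares, ratios and slopes below include it. Transcripts of acinar cells, the enzyme-secreting exocrine cells, took from 8.43% to 34.1% of reads in knockout and from 6.58% to 33.7% in wild-type libraries. In bulk islets, fewer cells of a type and less RNA per cell cannot be told apart.

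The 5 genes had enough reads for counting error to be small beside the spread between libraries. The fewest reads were 210 for Scn3a, 217 for Scn8a, 333 for Scn9a, 353 for Trpm4 and 2618 for Trpm5. By mean value Trpm5 ranked number 470 of all genes in the table, Scn9a 2841, Scn8a 4732, Trpm4 5020 and Scn3a 5556.

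Scn9a and Trpm5 had the lowest ratio of knockout to wild-type means among the 5 channels, and the bases before their starts are shown so that the reader can see what their promoters hold. They are RefSeq sequences of build GRCm38.p6, matched by symbol, whereas the deposited counts come from mm9. The Scn9a stretch is 98 bases, chr2:66635115-66635212, and the Trpm5 stretch is 250 bases, chr7:143094643-143094892, both read 5′ to 3′ on the minus strand and ending just before the most upstream RefSeq start. Capitals mark matches to any of the 5 motifs searched.
Scn9a: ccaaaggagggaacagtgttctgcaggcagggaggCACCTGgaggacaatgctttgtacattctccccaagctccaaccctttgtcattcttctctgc
Trpm5: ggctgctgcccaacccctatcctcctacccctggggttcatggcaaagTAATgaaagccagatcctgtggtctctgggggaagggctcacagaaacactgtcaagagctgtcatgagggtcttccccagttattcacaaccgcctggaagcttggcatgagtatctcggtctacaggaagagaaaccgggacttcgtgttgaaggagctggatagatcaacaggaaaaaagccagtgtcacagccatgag
The motifs were the E-box CANNTG, the TATA box TATAAA, the CCAAT box CCAAT, the GC box GGGCGG and the homeodomain core TAAT, searched on both strands; no 2 matches overlapped. The Scn9a stretch held 1 E-box, which 35.6% of 32851 promoter windows of that length also hold. The Trpm5 stretch held 1 TAAT, which 54.9% of windows of its length hold. The windows compared were the first 98 or 250 bases of each promoter sequence, matched in length and not by distance from the gene start. Neither stretch held a TATA box, a CCAAT box or a GC box, which says only that those letters are not in these windows.

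Scn9a was the highest of the sodium channel genes per exon length. It encodes Nav1.7, a tetrodotoxin-sensitive channel best known from pain-sensing neurons and the main sodium channel transcript of mouse beta cells. Its level was 153 ± 54.8 normalized reads per kilobase of exon for the knockout against 203 ± 80.1 for the wild-type group (SD, n = 10 each). Scn8a, which encodes Nav1.6 of the axon initial segment and nodes of Ranvier, was at 77.0 ± 32.4 (SD, n = 10) and 78.0 ± 18.9 (SD, n = 10) per kilobase. Scn3a, which encodes Nav1.3, a channel abundant in the embryonic nervous system and in alpha cells, was at 75.4 ± 29.4 (SD, n = 10) and 78.1 ± 23.9 (SD, n = 10) per kilobase. Scn9a was above Scn3a in 20 of 20 libraries and above Scn8a in 19 of 20, wild-type library 14 being the exception. Scn8a and Scn3a could not be ordered: Scn8a was the higher in 9 of 20 libraries per exon length and in 18 of 20 per coding length.

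These 3 genes made up most of the alpha subunit transcripts of the islets. Per kilobase, they held from 82.3% to 96.6% of the sum over the 10 alpha subunit genes in knockout libraries and from 82.3% to 96.8% in wild-type libraries. Scn9a alone held 45.2 ± 7.01% of that sum for the knockout against 50.6 ± 8.65% for the wild-type group (SD, n = 10 each). Scn7a, which encodes the sodium-sensing channel Nax, came next at a median of 18.8 per kilobase and was below Scn3a in all 20 libraries. Scn2a had a median of 3.01 per kilobase. Scn1a, Scn4a and Scn11a had medians between 0.220 and 1.33, and Scn10a had reads in 1 of 20 libraries.

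Trpm5 was far above all other TRPM genes. It encodes the channel that also serves taste receptor cells and tuft cells, and it was at 1271 ± 475 per kilobase for the knockout against 1762 ± 483 for the wild-type group (SD, n = 10 each). Trpm4, which encodes the closely related and more widely expressed channel, was at 109 ± 51.1 (SD, n = 10) and 98.0 ± 44.9 (SD, n = 10) per kilobase. Trpm5 stood above Scn9a and above Trpm7, the next TRPM gene per exon length, in 20 of 20 libraries. Per kilobase of coding sequence Trpm3 came next instead, with means of 455 in knockout and 484 in wild-type where Trpm7 had 357 and 324. Trpm7, a channel fused to a kinase, was above Trpm4 in 17 of 20 libraries. Trpm3 and Trpm4 had overlapping levels, with Trpm4 the higher in 6 of 20 libraries. Trpm2 had a median of 48.7 per kilobase, and Trpm1, Trpm6 and Trpm8 had no reads in 19, 13 and 18 libraries.

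**Figure D1:**
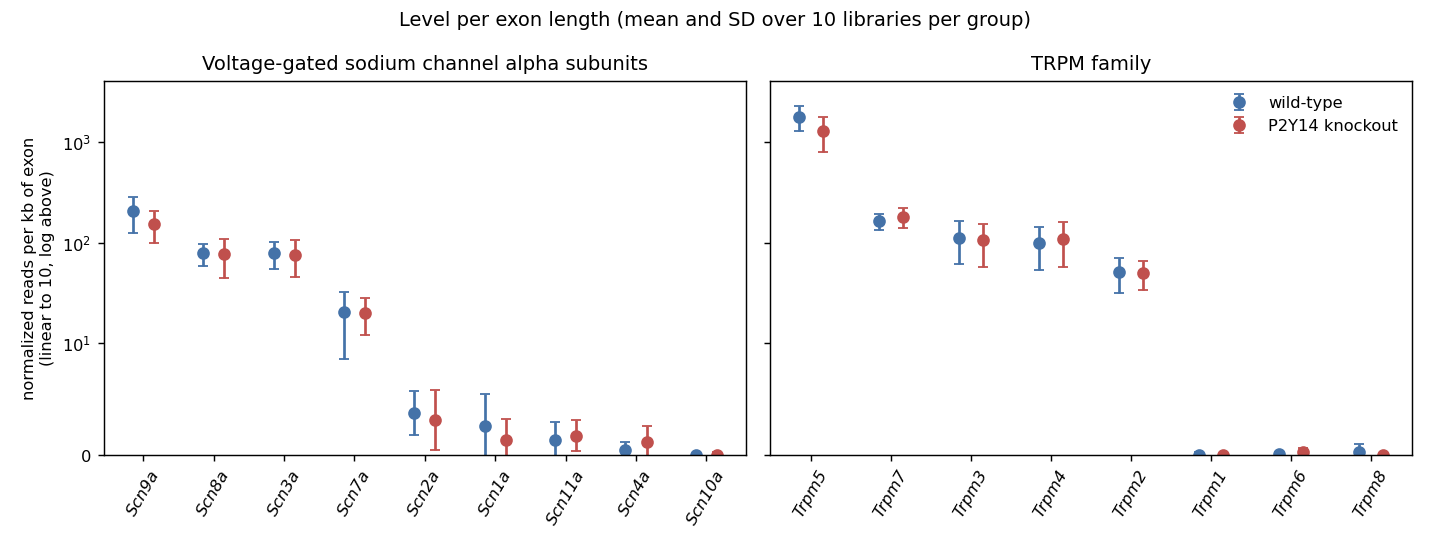
Normalized reads per kilobase of exon for 9 sodium channel alpha subunit genes (left) and the 8 TRPM genes (right), as mean and SD over 10 libraries per group, on an axis that is linear to 10 and logarithmic above. Scn9a, Scn8a and Scn3a lead the left panel, and Trpm5 is at 1271 in knockout and 1762 in wild-type where Trpm7 is at 180.0 and 163.

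Knockout and wild-type islets were compared to ask whether loss of P2Y14 went with a change in these channels. None of the 5 genes passed the threshold of 0.05 on the adjusted p of limma, a linear model fitted to log2 of the value plus 1 over all 17482 genes with a mean of at least 10. Of those genes 49, or 0.28%, were called, and 8.94% had an unadjusted p under 0.05. The unadjusted p was under 0.05 for Trpm5 and for none of the other 4 channels. All 5 genes had overlapping groups, and 0.0343% of tested genes had groups that did not overlap.

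Scn9a had a lowest value of 856, a median of 2179 and a highest of 2807 in knockout, against 897, 2801 and 3650 in wild-type. The groups overlapped, although 5 of the 10 wild-type libraries lay above every knockout library and 9 of 10 knockout libraries lay below the wild-type mean. The log2 fold change was -0.39 (SE 0.27, 95% interval -0.95 to 0.17), with an adjusted p of 0.692 by limma. Without the library labelled knockout replicate 6 it was -0.27.

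Scn3a had a lowest value of 540, a median of 878 and a highest of 1753 in knockout, against 632, 875 and 1386 in wild-type. The medians were alike, and the extremes on both sides were knockout libraries, replicate 6 being the lowest and replicate 5 the highest of all 20. The log2 fold change was -0.08 (SE 0.21, 95% interval -0.51 to 0.35), with an adjusted p of 0.932 by limma. It was -0.0018 without the library labelled knockout replicate 6.

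Scn8a had a lowest value of 558, a median of 1048 and a highest of 2216 in knockout, against 759, 1252 and 1639 in wild-type. As for Scn3a, knockout replicates 6 and 5 were the lowest and highest of the 20 libraries, and the knockout group spanned the whole wild-type range. The log2 fold change was -0.09 (SE 0.21, 95% interval -0.53 to 0.35), with an adjusted p of 0.926 by limma. Without the library labelled knockout replicate 6 the sign turned, to 0.02.

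Trpm4 had a lowest value of 721, a median of 959 and a highest of 2502 in knockout, against 620, 848 and 1916 in wild-type. Of the 20 libraries 4 stood apart at 1829 or more, namely knockout replicates 2 and 10 and wild-type libraries 14 and 17, and the next was at 1319. The log2 fold change was 0.17 (SE 0.24, 95% interval -0.34 to 0.67), with an adjusted p of 0.866 by limma. It was 0.20 without the library labelled knockout replicate 6 and 0.03 without knockout replicate 10.

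Trpm5 had a lowest value of 2540, a median of 7881 and a highest of 12290 in knockout, against 6721, 10082 and 16543 in wild-type. The groups overlapped, with 3 knockout libraries below the lowest wild-type library and 4 wild-type libraries above the highest knockout library. The log2 fold change was -0.54 (SE 0.23, 95% interval -1.02 to -0.06), with an unadjusted p of 0.0287 and an adjusted p of 0.503 by limma. It was -0.61 without the library labelled knockout replicate 6 and -0.37 without knockout replicate 2, the library with the lowest value. Trpm5 was the only 1 of the 5 whose unadjusted interval left out 0, and it ranked number 999 of the genes by p. Its unadjusted p by limma was 0.0506 without knockout replicate 2 and 0.0521 without knockout replicate 5. It was 0.0520 without wild-type library 11 and 0.0559 without wild-type library 14. Leaving out any other single library kept it under 0.05.

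**Figure D2:**
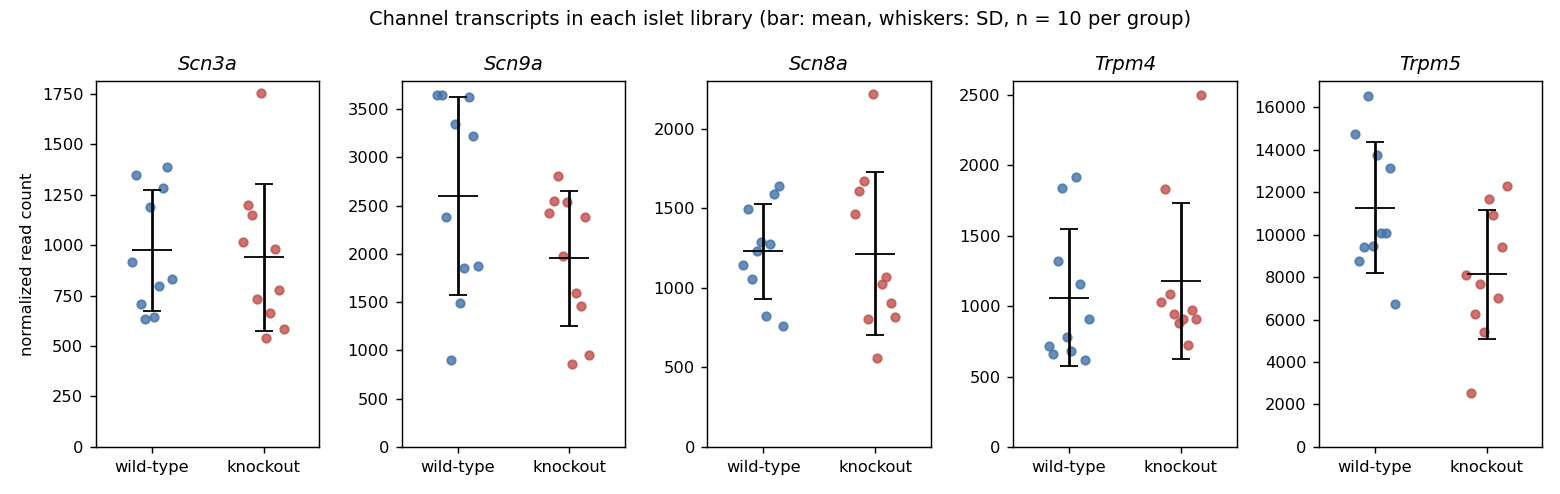
Normalized read count of each of the 5 channel genes in every library, with the mean (bar) and SD (whiskers) of 10 wild-type and 10 knockout libraries, on axes that start at 0. The groups overlap for every gene, and for Trpm5 the means are 8135 in knockout and 11274 in wild-type.

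Within a library, the ratio of 2 genes does not depend on the size factor. The ratio of Scn9a to Scn3a per kilobase ran from 1.41 to 2.99 with a median of 2.20 in knockout, and from 1.38 to 3.89 with a median of 2.46 in wild-type. The ratio of Trpm5 to Trpm4 ran from 2.35 in knockout replicate 2 to 25.7 with a median of 12.8 in knockout, and from 8.89 to 35.9 with a median of 17.8 in wild-type. Both ranges overlapped between the groups. Trpm5 held 71.7 ± 12.6% of the TRPM sum per kilobase for the knockout against 79.8 ± 4.98% for the wild-type group (SD, n = 10 each).

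The other genes of sodium channel function were likewise not called. Of the 10 alpha subunit genes 7 were tested, and 0 were called in either direction, where 0.16% of all genes were called higher and 0.12% lower. The median log2 fold change of those 7 was -0.09, against -0.0022 over all genes tested. Of the 4 beta subunit genes 3 were tested and 0 were called, with Scn3b at -0.23 and Scn2b at -0.01. Scn3b had a mean of 339 ± 117 (SD, n = 10) in knockout and Scn2b one of 65.3 ± 25.9 (SD, n = 10).

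Proteins that anchor, tune or remove sodium channels, together with epithelial sodium channel subunits, formed a list of 15 genes, of which 14 were tested and 0 were called. The median log2 fold change was -0.10. The members with the highest means were Sptbn4, a spectrin of the axon initial segment (-0.13), Nedd4, a ubiquitin ligase (-0.08), and Ank3, the ankyrin-G gene (-0.29, adjusted p = 0.569 by limma). An unadjusted p under 0.05 was found for 8.94% of all tested genes and for 1 of these 14, Scnn1b. Scnn1b encodes the beta subunit of the epithelial sodium channel. It was named after its values were seen, and its difference was -0.45 on the log2 scale (limma adjusted p = 0.268).

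The sodium leak channel NALCN and its partners, which set the resting sodium conductance, had 4 of 5 genes tested and 0 called. Their log2 fold changes were -0.22 for Unc80, -0.10 for Unc79, -0.09 for Nalcn and -0.15 for Fam155a. Unc80 was the highest of them, at 847 ± 300 normalized reads per kilobase for the knockout against 997 ± 362 for the wild-type group (SD, n = 10 each).

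Of the 8 TRPM genes 5 were tested and 0 were called, with a median log2 fold change of -0.05. Besides Trpm4 and Trpm5, these were Trpm7 (0.13), Trpm3 (-0.10) and Trpm2 (-0.05), the last a channel gated by ADP-ribose. Of 18 other TRP channel genes 12 were tested and 0 were called, with a median of -0.05. The most abundant were the lysosomal Mcoln1 (0.04), the polycystin Pkd2 (-0.09) and Trpc1 (-0.07). An unadjusted p under 0.05 was found for 2 of the 12 tested, Mcoln3 and Trpc7, and for 8.94% of all tested genes. These 2 were named after their values were seen, at -1.12 (adjusted p = 0.153 by limma) and -1.65 (adjusted p = 0.528 by limma). Both were low: Mcoln3 had means of 38.8 ± 17.4 in knockout and 86.3 ± 32.7 in wild-type (SD, n = 10 each). Trpc7 had 9.33 ± 7.62 and 25.3 ± 14.5 (SD, n = 10 each). Trpc7 passed the filter of 10 on the mean only through the wild-type group, so its difference is not read as a result.

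**Figure D3:**
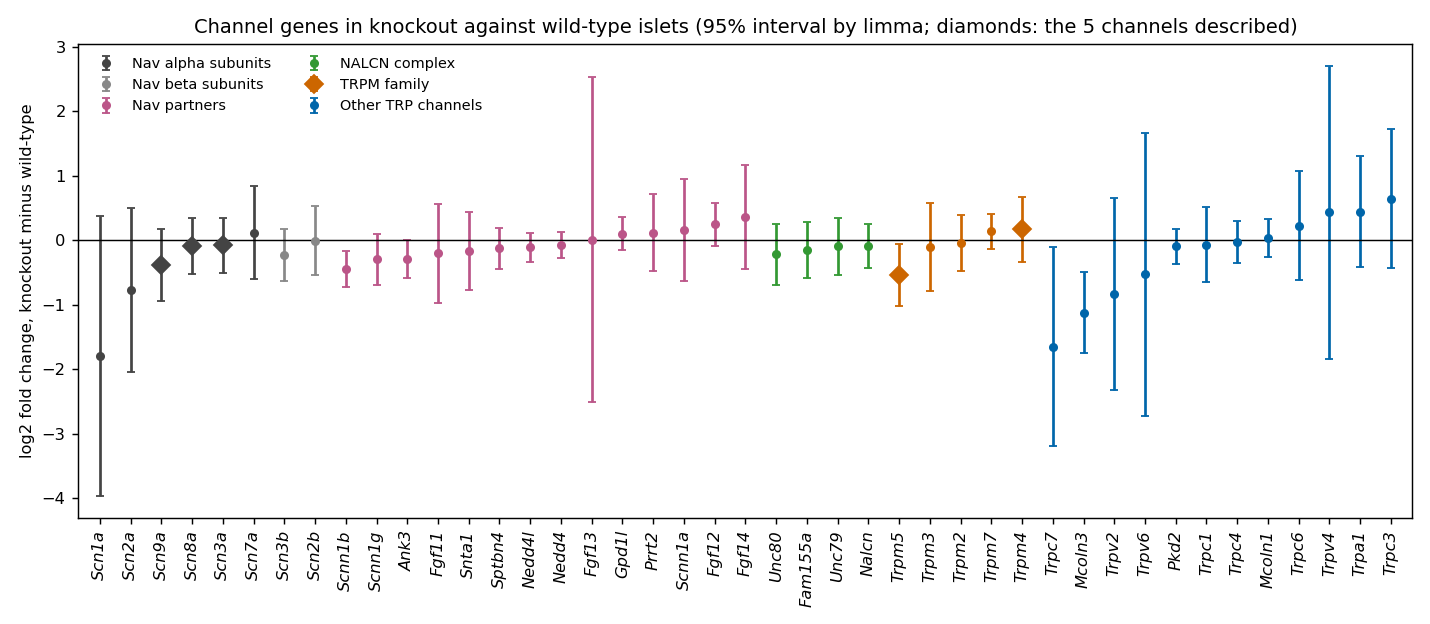
Log2 fold change, knockout minus wild-type, of 43 tested genes for sodium channels, their partners, the NALCN complex and TRP channels, with the 95% interval by limma. The intervals of 39 genes span 0, those of Trpm5, Scnn1b, Mcoln3 and Trpc7 lie below it, and no gene has an adjusted p under 0.05. Trpc7 has a knockout mean of 9.33, under the filter of 10 that it passed through the wild-type group.

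Upstream of TRPM4 and TRPM5 lie receptors, G proteins, phospholipases and calcium release channels, a list of 26 genes of which 22 were tested and 0 were called. The median log2 fold change was -0.10. Of the 22 tested, 17 had fold changes below 0 and 4 had an unadjusted p under 0.05. Among all tested genes, 50.4% had fold changes below 0 and 8.94% had an unadjusted p under 0.05. Among the most abundant were Abcc8, the sulfonylurea receptor of the ATP-sensitive potassium channel (-0.13), and Itpr1, an IP3 receptor that releases stored calcium (-0.70, adjusted p = 0.0662 by limma). Glp1r, the receptor for the incretin GLP-1, had -0.35 (adjusted p = 0.537 by limma).

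The 3 sodium channel genes varied together across libraries. Over the 20 libraries, the log2 values of Scn3a and Scn8a had Pearson r = 0.861 (permutation p = 1e-05, the smallest that 100000 resamples can give) and Spearman rho = 0.833 (permutation p = 1e-05), with adjusted p = 0.0001 for each over the 10 pairs of channels. Without the 2 libraries farthest from the median of Scn3a, knockout replicates 5 and 6, r was 0.790. Within knockout r was 0.944 and within wild-type 0.723. Scn3a and Scn9a had r = 0.784 (permutation p = 3e-05, adjusted p = 0.00015) and rho = 0.815 (permutation p = 3e-05, adjusted p = 0.00015), with r = 0.805 without the same 2 libraries, 0.777 within knockout and 0.836 within wild-type. Scn9a and Scn8a had r = 0.641 (permutation p = 0.00254, adjusted p = 0.00847) and rho = 0.671 (permutation p = 0.00152, adjusted p = 0.00507), with r = 0.633 without knockout replicate 6 and wild-type library 14. Within the groups that r was 0.791 and 0.502.

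None of the 7 pairs that included Trpm4 or Trpm5 passed the adjustment. Of these, Scn3a and Trpm5 had the smallest p, with r = -0.480 (permutation p = 0.0281, adjusted p = 0.0703) and rho = -0.486 (permutation p = 0.033, adjusted p = 0.0825). That r was -0.391 without knockout replicates 5 and 6, -0.754 within knockout and -0.276 within wild-type. Trpm4 and Trpm5 had r = -0.17 (permutation p = 0.474, adjusted p = 0.527) and rho = -0.159 (permutation p = 0.5, adjusted p = 0.556), with -0.391 without knockout replicate 10 and wild-type library 17. Within knockout that r was -0.227 and within wild-type 0.039.

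Genes most like each channel were sought among 12600 protein-coding genes with a mean of at least 50, by the Pearson correlation of log2 values over 20 libraries after the group means were taken out. For Scn3a these were Tet2 (0.955), Psd3 (0.954) and Wdfy3 (0.936). For Scn9a they were Kcnma1, the BK potassium channel gene (0.923), Pbrm1 (0.919) and Nr2c2 (0.918), and for Scn8a they included Leng8 (0.913) and Adgrl1 (0.897). For Trpm5 they were Fam151a (0.945), Camk2n1 (0.886) and C1qa (0.885), and for Trpm4 Acaa2 (0.887), Metrn (0.883) and Gpt (0.880). By the same measure, Scn8a ranked number 96 and Scn9a number 329 of the 12600 for Scn3a. Beside Scn9a, Scn3a ranked number 222 and Scn8a number 1057. Beside Scn8a, Scn3a ranked number 29 and Scn9a number 795. Each sodium channel gene thus had other genes that varied more closely with it.

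The lists for Scn3a and Trpm5 differed in gene length. The 3 genes most like Scn3a had 15.4 to 17.6 kilobases of exon, as Scn3a itself has 12.5, and the 3 most opposite to it, Gabarap, Eif5a and Rpl36al, had 1.35 to 2.38. Those 3 were named after their values were seen. For Trpm5, which has 6.40 kilobases, the 3 most alike had 1.04 to 4.44 and the 3 most opposite 6.14 to 15.0. For Trpm4, which has 10.8 kilobases, the 3 most alike had 1.52 to 3.77 and the 3 most opposite 4.24 to 7.04. Trpm4 and Trpm5 were thus both most like genes shorter than themselves. The libraries differed in the levels of long and short genes. The median level of 2403 genes with at least 8 kilobases of exon, minus that of 773 genes with at most 1.5, was lowest in knockout replicate 10, at -1.05 on the log2 scale, and highest in knockout replicate 5, at 0.79. Its mean was -0.15 ± 0.54 for the knockout against 0.12 ± 0.41 for the wild-type group (SD, n = 10 each).

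With this long-minus-short difference as a second term in the fit, Scn3a rose by 0.90 (SE 0.12, adjusted p = 1.29e-05 by limma) on the log2 scale per unit of the difference. Scn9a rose by 1.04 (SE 0.20, adjusted p = 0.000569 by limma) and Scn8a by 0.72 (SE 0.18, adjusted p = 0.00384 by limma). Trpm5 fell by 0.66 (SE 0.21, adjusted p = 0.0232 by limma), and Trpm4 had a slope of -0.61 (SE 0.24, adjusted p = 0.0551 by limma). Of all tested genes 15% were called as rising and 15.4% as falling with this term, which was built from genes of the same libraries, so these slopes describe and do not test independently. The genotype difference was 0.16 for Scn3a, -0.10 for Scn9a, 0.11 for Scn8a, -0.00026 for Trpm4 and -0.72 (SE 0.20, adjusted p = 0.184 by limma) for Trpm5 in this fit. Once each gene's line on the difference was taken out, the r of Scn3a and Scn8a over 20 libraries was 0.736, that of Scn3a and Scn9a 0.349 and that of Scn9a and Scn8a 0.237. Among the pairs that included Trpm4 or Trpm5, r then ran from -0.444 for Trpm4 and Trpm5 to 0.560 for Scn8a and Trpm4. The latter pair had -0.006 before. No p was computed for these r. What sets the long-minus-short difference between libraries was not tested.

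**Figure D4:**
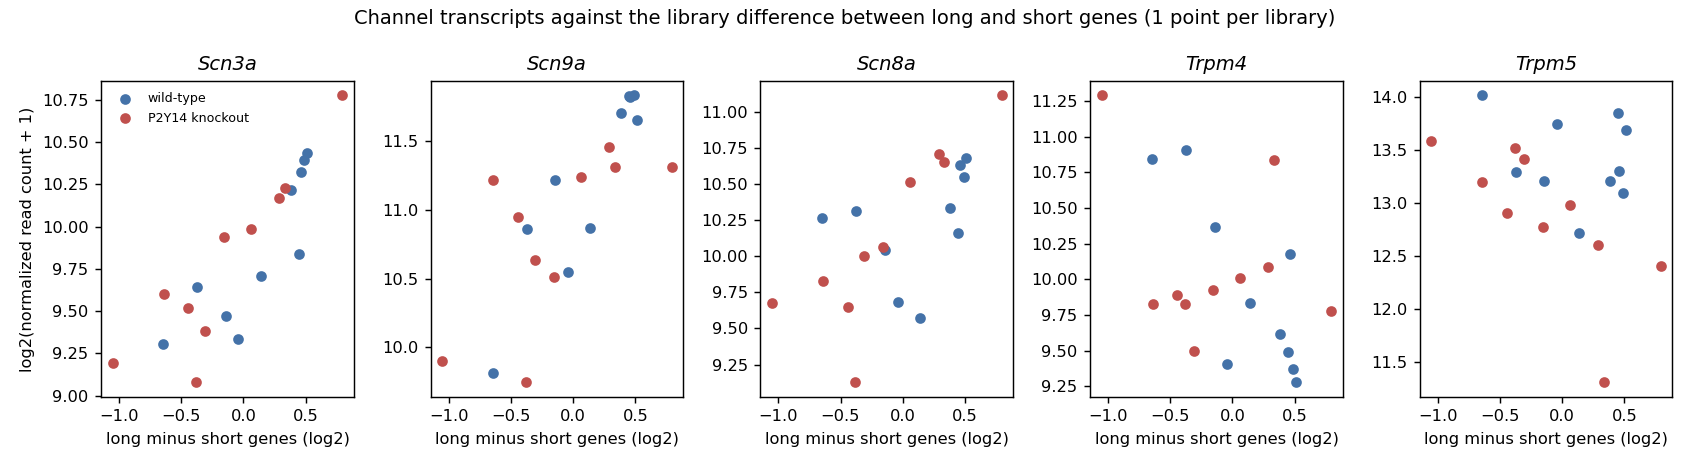
Log2 of the normalized read count plus 1 of each channel gene against the library's median level of long minus short genes (log2), 1 point per library, with wild-type in blue and knockout in red. Scn3a, Scn9a and Scn8a lie higher in libraries with a larger difference, with slopes of 0.90, 1.04 and 0.72, and Trpm5 lies lower, with a slope of -0.66.

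Trpm4 was also set beside the beta cell and acinar markers of each library. With the mean log2 level of 12 beta cell marker genes as a second term, Trpm4 had a slope of -1.97 (SE 0.38, adjusted p = 0.00836 by limma), so it was lower where beta cell transcripts were higher. Of all tested genes 3.83% were called lower and 2.47% higher with this term. The library with the most Trpm4, knockout replicate 10 at 2502, had the lowest mean log2 level of the beta markers among the 20, 14.19, and the highest acinar share, 34.1%. The library with the least, wild-type library 19 at 620, had a mean log2 beta marker level of 15.02 and an acinar share of 13.6%. With the log2 acinar share as the second term instead, Trpm4 had a slope of 0.48 (SE 0.15, adjusted p = 0.0597 by limma), where 4.31% of genes were called higher. Of the libraries with Trpm4 at 1829 or more, knockout replicates 2 and 10 had acinar shares of 31.9% and 34.1%. Wild-type libraries 14 and 17 had 30.4% and 31.5%. Wild-type library 13, next at 1319, had 33.7%. Knockout replicate 6, the library that went against its group at other genes, had 34.0%. Its Trpm4 value was 907, within the range of the lower libraries. How much of the Trpm4 RNA came from acinar cells was not tested.

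The other 4 channels were not called with either term, and 0.664% of tested genes were called lower with the acinar share. Against the acinar share the slopes were -0.41 for Scn3a (adjusted p = 0.0566 by limma), -0.47 for Scn9a (adjusted p = 0.124 by limma), -0.28 for Scn8a (adjusted p = 0.265 by limma) and 0.11 for Trpm5 (adjusted p = 0.734 by limma). Against the beta markers they were 0.59, 1.13, 0.37 and 0.57, with adjusted p from 0.249 to 0.680 by limma. Of the 12 beta markers 8 had fold changes below 0 and 0 were called, the median being -0.19. An unadjusted p under 0.05 was found for 3 of them, Mafa (-0.55), Slc2a2 (-0.42) and Glp1r (-0.35). The 4 above 0 were Iapp (0.19), Ins2 (0.16), Ins1 (0.10) and Ucn3 (0.0047). Over all tested genes, 50.4% had fold changes below 0 and 8.94% had an unadjusted p under 0.05.

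Markers of the other endocrine cells were also read beside the channels, since alpha and delta cells carry sodium channels too. Of 8 alpha cell markers 0 were called, 5 had an unadjusted p under 0.05 and 6 had fold changes below 0; the median was -0.57. Their summed normalized count, most of it the glucagon gene Gcg, ran from 546500 to 1840000 in knockout and from 1205000 to 2293000 in wild-type. Of 5 delta and PP cell markers 0 were called, 2 had an unadjusted p under 0.05 and all 5 had fold changes below 0, the median being -0.54. Among all tested genes the shares were 8.94% with an unadjusted p under 0.05 and 50.4% with fold changes below 0. The somatostatin gene Sst had a lowest value of 34450 and a median of 79860 in knockout against 84300 and 94800 in wild-type. The part of these cells in the channel values was not tested.

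Nerve cells and tuft cells also carry these channels, and their markers were read beside them. Of the neuron markers, 13 had values and 11 of them were tested and 0 were called, and their summed normalized count ran from 7331 to 10980 in knockout and from 10080 to 18260 in wild-type. Of the 11 tested, 6 had fold changes below 0 and 5 above, and the median was -0.025. Most of the sum was Th, at a median of 4469 in knockout and 6395 in wild-type, and Elavl4, at 2111 and 2365. Th was the 1 neuron marker with an unadjusted p under 0.05. Its log2 fold change was -0.63, with unadjusted p = 0.000924 and adjusted p = 0.137 by limma. Which cells the Th and Elavl4 reads came from was not tested. Dbh had no reads in 17 of 20 libraries. Of the tuft cell markers, 8 had values, 5 of them were tested and 0 were called, with a sum from 281 to 850 in knockout and from 461 to 886 in wild-type. The tuft cell genes Pou2f3, a transcription factor, and Il25, a cytokine, had no reads in 15 and 19 of 20 libraries. In contrast, Dclk1, Avil and Alox5ap had reads in every library. Their medians were 215, 174 and 159 in knockout and 304, 251 and 93.5 in wild-type. Of the 5 tested, 3 had fold changes below 0 and 2 above. Dclk1 had -0.52, with unadjusted p = 0.0473 and adjusted p = 0.558 by limma. Which cells these reads came from was not tested.

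Neighbouring transcripts bear on how exactly the reads can be assigned, since the library kit does not mark strand. In GENCODE M21, exons of Trpm5 share 220 bases with Tssc4, a gene on the opposite strand, which was at 4438 ± 585 for the knockout against 4344 ± 760 for the wild-type group (SD, n = 10 each). Exons of Scn9a share 180 bases with the antisense gene Gm13629, at 13.1 ± 5.41 and 21.5 ± 12.9 (SD, n = 10 each), far below Scn9a itself. Rpl14-ps1, a processed pseudogene inside Trpm4 that shares no exon base with it, was at 2562 ± 1000 and 1904 ± 539 (SD, n = 10 each). Scn3a, Scn9a, Scn1a, Scn2a and Scn7a lie on chromosome 2, Scn8a on chromosome 15 and Trpm4 and Trpm5 on chromosome 7.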

How the data were processed

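RNA-seq was made from 20 islet libraries with a TruSeq RNA v2 kit, per the labels' protocols. The deposited values are a signal unit, DESeq-normalized gene read counts per the file's name. Build mm9, DESeq 1.16.0, Cufflinks 1.3.0, Bowtie 0.9.9, TopHat 1.3.3 and FastQC are listed without roles, per the submitters' processing notes. What counter, strand setting and annotation were used was not given in the sources used here. All values were whole multiples of 1 step per library (tolerance 0.05 reads), which gave back reads and depth. Wild-type columns are numbered 11 to 20 and were used without a replicate number. Names and exon lengths came from GENCODE M21 (23950 genes named, 2261 not).

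limma 3.58.1 in R 4.3.3 was fitted to log2(value + 1) for genes whose mean reached 10, genotype being the term, and checked on simulated data; p was adjusted by Benjamini-Hochberg over all genes. edgeR 4.0.16 and DESeq2 1.42.0 were run on the recovered reads as alternatives. Correlations used 100000 permutations, two-sided (Python 3.11.15, numpy 2.4.6, scipy 1.17.1). The 5 channels and all gene lists were chosen with earlier results of these data known. Named genes were the 5 channels, the 3 highest of each list and the 3 genes most like each channel. A few genes within this rule are left out of the text and plots. The long-minus-short term and the fit without knockout replicates 5 and 6 together were added after seeing the data.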

Additional observations from a re-analysis of the deposited data

How the results depend on the processing

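None of the 5 channels passed the adjusted threshold under any alternative run. The count of 49 called genes became 29 when the mean had to reach 100, 163 with library weights, 29 with beta cell markers as a term (13 higher and 16 lower), 137 with DESeq2, 43 with edgeR (31 higher and 12 lower, against 28 and 21), 75 with the long-minus-short term and 75 without knockout replicates 5 and 6 together. With 1 library left out it ran from 27 (without knockout replicate 4) to 74 (without knockout replicate 6), and it was 32 when knockout replicate 8 or 9 was dropped and 31 when wild-type library 19 was. The fold change of Scn3a turned to 0.015 with beta cell markers and 0.16 with the long-minus-short term, that of Trpm4 to -0.15 and -0.00026, and that of Scn8a to 0.11 with the latter; the cause was not tested. With 1 library left out Scn3a ran from -0.19 to -0.0018, Scn9a from -0.54 to -0.27, Scn8a from -0.20 to 0.022 (without knockout replicate 6), Trpm4 from 0.03 to 0.27 and Trpm5 from -0.62 to -0.37. Over the 14 settings that kept every library or left out a pair, the lowest adjusted p was 0.184, for Trpm5. No paired analysis was possible because the wild-type columns carry no replicate number of the labels. The 95% intervals give the changes that the spread between 10 libraries a group does not exclude.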
